A study of Mus musculus with 21 samples.

Results

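The comparison described here sets hematopoietic stem cells (HSC) of mice that carry 2 amino acid changes in Etv6, S211I and P216L, against HSC of mice with wild-type (WT) Etv6. Its members were chosen by genotype and cell type from the sample labels: 3 double-mutant libraries and 3 WT libraries, 6 of the 21 in the series. The stem cells were sorted out of mouse bone marrow, by markers the labels do not name, and RNA was sequenced after low-input SMART-Seq v4 amplification. The other libraries are HSC with P216L or S211I alone, and megakaryocyte-erythroid progenitors (MEP) of the same 4 genotypes. The title field names the first change S211I and the genotype field names it P211I. The labels do not give age, sex, zygosity, or whether each library is a separate animal, so p-values measure only the spread between libraries. The title of the series frames the question as what happens to blood formation when a germline ETV6 change creates a nuclear export signal.

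Etv6 is a repressor of the ETS transcription factor family and is needed to keep stem cells in adult marrow. It pairs through its pointed domain, binds DNA through its ETS domain, and the linker between them recruits co-repressors. In people, inherited ETV6 changes cause low platelet counts with a predisposition to leukaemia. HSC divide rarely and feed the MEP, from which red cells and platelets arise. Both changes lie close together in 1 exon of the gene, shown here as reference sequence from GENCODE M21 on GRCm38, exon 5, chr6:134248408-134248482, + strand, codons 201 to 225 of 485, with the codons named in S211I and in P216L, in that order, in capitals.
Etv6: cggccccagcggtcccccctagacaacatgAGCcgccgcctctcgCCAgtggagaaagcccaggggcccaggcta
The codon of S211I reads agc, which encodes serine, and that of P216L reads cca, which encodes proline. The reference thus has the serine that the title form S211I starts from. A count per gene does not read either change.

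Levels are given in CPM, counts scaled to a common library size with TMM factors, which do not correct for gene length and serve to compare libraries, not genes. Etv6 RNA had 421, 412 and 298 CPM in double-mutant HSC, against 402, 224 and 209.9 CPM in WT HSC. The groups overlapped, and Etv6 did not pass the test (log2 fold change 0.44 ± 1.25, edgeR adjusted p = 1).

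The double-mutant libraries held 1559513, 369439 and 2250654 counts, and the WT libraries 151216, 410303 and 480419. They detected 9627, 7868 and 10275 genes in the double mutant and 5448, 6418 and 8013 genes in WT. After each library was thinned to 151215 counts, 8483, 7353 and 8445 genes were detected in the double mutant and 5448, 5992 and 7378 in WT. A count of 3, the limit that a count of 0 allows, is worth 2.13, 8.18 and 1.58 CPM in the double mutant and 15.3, 6.64 and 6.56 CPM in WT, for counting error only. Libraries of the same group were far from alike, with a Pearson r of log CPM across genes of 0.419 to 0.511 in the double mutant and 0.296 to 0.509 in WT. Summed Y-linked transcripts were at 227, 10.8 and 587 plain CPM in the double mutant and 450, 621 and 435 in WT, and Xist was found only in double-mutant replicate 3, at 17.3. Depth, the number of genes detected and these sex-linked levels vary with the libraries. Their part in the results was not tested except in thinned libraries, where 2 genes passed, and with a Y-linked covariate, where 6 passed. Those 2, and 4 of the 6, belong to the 7 genes called in the main fit below. With the covariate, Gpx3, Cxcl12 and Pacsin2 did not pass (edgeR adjusted p = 0.353, 0.134 and 0.0557).

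Of 9471 genes tested, 7 (0.0739%) passed an adjusted p of 0.05 between the double mutant and WT, 5 higher (0.0528%) and 2 lower (0.0211%) in the double mutant. The higher genes were Rrm1, H2az1, Mtfr1, Kpna2 and Pacsin2, and the lower ones were Gpx3 and Cxcl12. At an unadjusted p below 0.05, 783 genes (8.27%) were higher and 214 (2.26%) lower. The 3 double-mutant libraries lay above all 3 WT libraries for 1235 genes (13%) and below them for 259 (2.73%). Tested genes at 0 in every WT library numbered 1169, and those at 0 in every double-mutant library 262. A gene at 0 in every WT library counts as higher once each double-mutant library holds any count. The log2 fold change was above 0 for 60.2% of genes, with a median of 0.44, and this median was 0.15 with relative log expression (RLE) size factors and 0.25 in thinned libraries. The counts for gene groups below are therefore to be read against a background already shifted upward.

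**Figure D1:**
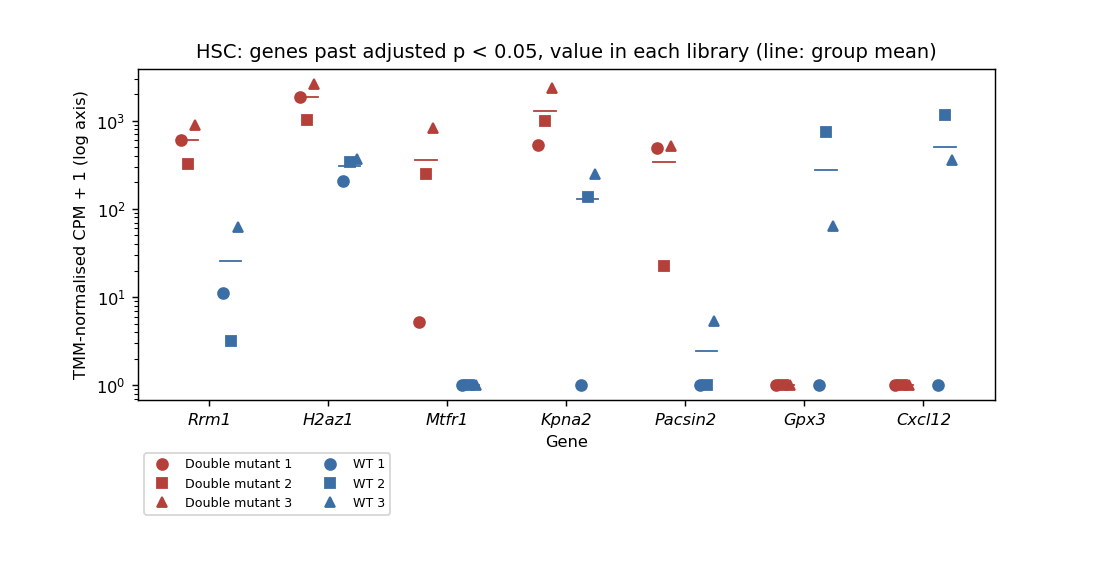
TMM-normalised CPM + 1 (log axis) of the 7 genes past an adjusted p of 0.05, with double-mutant libraries in red left of WT libraries in blue, 1 marker shape per replicate and a line at the group mean. The groups do not overlap for Rrm1, H2az1, Mtfr1, Kpna2 and Pacsin2, whereas Gpx3 and Cxcl12 are at 0 in WT replicate 1 as in all 3 double-mutant libraries.

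Rrm1, the large subunit of the ribonucleotide reductase that makes DNA precursors, had 607, 322 and 898 CPM in double-mutant HSC, against 10.2, 2.21 and 61.2 CPM in WT HSC. Every double-mutant library lay at least at 322 CPM and every WT library at most at 61.2 CPM. The log2 fold change was 4.60 ± 0.86 (SE, n = 3 each; edgeR adjusted p = 0.000772), and it kept passing with any of the 6 libraries left out. H2az1, which encodes the histone variant H2A.Z, had 1878, 1030.2 and 2627 CPM in double-mutant HSC, against 204, 337 and 372 CPM in WT HSC. The groups did not overlap (log2 fold change 2.60 ± 0.51, edgeR adjusted p = 0.00133), though without double-mutant replicate 3 its adjusted p was 0.192.

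Kpna2, an importin alpha that carries proteins into the nucleus, had 528, 998 and 2373 CPM in double-mutant HSC, against 0, 137 and 249 CPM in WT HSC. It was at 0 in the shallowest WT library and higher in each double-mutant library than in any WT library (log2 fold change 3.32 ± 0.69, edgeR adjusted p = 0.00435). Its adjusted p was 0.624 without double-mutant replicate 3, 0.162 without WT replicate 1 and 0.25 without WT replicate 2. Mtfr1, a regulator of mitochondrial fission, had 4.25, 251 and 824 CPM in double-mutant HSC, against 0, 0 and 0 CPM in WT HSC. Giving WT 3 counts over its summed libraries, it was at least 132-fold higher in the double mutant (edgeR adjusted p = 0.00236). This bound, like the other fold bounds below, allows for counting error only, not for the spread between libraries. The value in double-mutant replicate 1 lies below what 3 counts are worth in any WT library, and the adjusted p was 0.579 without double-mutant replicate 3 and 0.162 without WT replicate 1.

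Pacsin2, an F-BAR protein that bends membranes and acts in the invaginated membrane system of megakaryocytes, had 487, 21.8 and 521 CPM in double-mutant HSC, against 0, 0 and 4.37 CPM in WT HSC. Double-mutant replicate 2 was low but still above every WT library (log2 fold change 7.61 ± 1.82, edgeR adjusted p = 0.0392). The call was lost without double-mutant replicate 1 (adjusted p = 0.334), double-mutant replicate 3 (0.579), WT replicate 1 (0.225) or WT replicate 2 (0.413).

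For 6 of these 7 genes the RefSeq table for GRCm38.p6 holds the window from 250 bases before to 50 after the gene's start; Mtfr1 has none there. The windows of the 3 higher genes with the smallest p among those are printed because these genes were higher together, with every CCAAT box (CCAAT, or ATTGG on the other strand) in capitals.
Rrm1, chr7:102441445-102441744 (+ strand): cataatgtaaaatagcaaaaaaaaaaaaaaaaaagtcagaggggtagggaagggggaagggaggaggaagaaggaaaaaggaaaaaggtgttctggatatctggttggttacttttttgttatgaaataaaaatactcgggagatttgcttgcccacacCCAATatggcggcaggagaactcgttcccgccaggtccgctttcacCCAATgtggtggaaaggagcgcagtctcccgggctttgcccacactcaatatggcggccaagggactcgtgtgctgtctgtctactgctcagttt
H2az1, chr3:137864237-137864536 (+ strand): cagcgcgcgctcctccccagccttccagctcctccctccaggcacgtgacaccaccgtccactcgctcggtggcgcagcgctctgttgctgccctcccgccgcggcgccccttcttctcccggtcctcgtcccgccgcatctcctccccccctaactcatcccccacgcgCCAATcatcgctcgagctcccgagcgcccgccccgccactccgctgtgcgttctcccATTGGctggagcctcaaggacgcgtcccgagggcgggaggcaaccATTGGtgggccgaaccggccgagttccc
Kpna2, chr11:106999476-106999775 (- strand): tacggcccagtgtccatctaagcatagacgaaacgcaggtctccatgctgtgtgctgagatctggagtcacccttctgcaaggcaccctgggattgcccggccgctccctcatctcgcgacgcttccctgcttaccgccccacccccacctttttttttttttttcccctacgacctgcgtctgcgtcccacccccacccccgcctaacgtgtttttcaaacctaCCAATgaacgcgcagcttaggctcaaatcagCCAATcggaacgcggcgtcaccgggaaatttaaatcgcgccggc
CCAAT on either strand was in the windows of 5 of the 6 genes (all but Cxcl12) and in 37.4% of all 32851 windows. The ETS form CCGGAAG was in 0 of 6, against 8.86% of all windows, and shorter ETS forms were not searched. E2F forms (TTTGGCGC, TTTCCCGC, TTTCGCGC and TTTGCCGC) were in 0 of 6, against 2.26%. TTTGAA, the cell cycle homology element, was in 1 of 6 (Kpna2), against 17.9%, and its variant TTCGAA in 0 of 6, against 1.56%. The GATA form AGATAA was in 0 of 6, against 11.2%. All were searched on both strands; a match describes letters only and is no binding site, and Gpx3, which was lower, also holds CCAAT.

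The genes of DNA precursor supply, replication and mitosis lay mostly above WT, with Rrm1 as the only member that passed. Of 19 tested genes of nucleotide supply, 16 had a positive fold change and 8 did not overlap upward (1 downward), with a median log2 fold change of 1.85 beside 0.44 for all genes. Of 30 replication genes, 27 were positive, 10 were higher at an unadjusted p below 0.05 and 7 did not overlap (median 1.80). Of 30 genes of G2 and mitosis, 24 were positive, 7 were higher at that p, and 9 did not overlap upward against 1 downward (median 1.73). Among all genes, 60.2% were positive, 8.27% were higher at that p, and 13% did not overlap upward and 2.73% downward. In thinned libraries 15 of 18, 24 of 28 and 22 of 28 members of these 3 lists were positive, beside 56.4% of all genes. Without double-mutant replicate 3 the mitotic median was 0.92 (22 of 30 positive) and the replication median 1.10 (24 of 30, with 5 higher at an unadjusted p below 0.05), beside 0.27 for all genes. In that fit 56.4% of all genes were positive. Without WT replicate 1, 3 replication genes were higher at that p. Without WT replicate 3 the nucleotide median was 4.69 and the replication median 2.82, beside 0.85 for all genes.

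Rrm2, the small subunit of the same reductase, had 485, 65.4 and 1009.5 CPM in double-mutant HSC, against 0, 2.21 and 127 CPM in WT HSC. Here the groups overlapped, because WT replicate 3 exceeded double-mutant replicate 2 (log2 fold change 3.56 ± 0.92, edgeR adjusted p = 0.0834). Impdh2, the rate-limiting enzyme of guanine nucleotide synthesis, had 197, 117 and 595 CPM in the double mutant and 15.3, 6.64 and 6.56 CPM in WT, without overlap (edgeR adjusted p = 0.393). Shmt1, a cytosolic enzyme of folate one-carbon transfer, lay the other way at 7.09, 0 and 0 CPM in the double mutant and 259.7, 188 and 24.1 CPM in WT and did not pass. Mcm2, a subunit of the replicative helicase, had 208, 87.2 and 865 CPM in the double mutant and 0, 0 and 67.8 CPM in WT, the nearest of the replication list to the threshold (log2 fold change 4.04 ± 1.00, edgeR adjusted p = 0.0626). Mcm3, another helicase subunit, had 149, 43.6 and 833 CPM in the double mutant and 5.09, 124 and 24.1 CPM in WT, and its groups overlapped. Both helicase subunits were highest in double-mutant replicate 3. Among mitotic genes, Racgap1, which builds the central spindle, had 122, 185 and 157 CPM in the double mutant and 0, 0 and 0 CPM in WT. Nde1, a dynein partner at the centrosome, was at 167, 5.45 and 314 CPM in the double mutant and 0, 0 and 0 CPM in WT, so it was found in no WT library. Plk1, a kinase of mitotic entry, had 115, 123 and 189 CPM in the double mutant and 0, 0 and 2.19 CPM in WT, and neither Racgap1, Nde1 nor Plk1 passed (edgeR adjusted p = 0.0834, 0.0834 and 0.468).

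Among cyclins, their kinases and inhibitors, 14 of 21 were positive, beside 60.2% of all genes. Of these 21, 5 did not overlap upward, beside 13% of all genes, and the median was 1.69. This median was 0.43 without double-mutant replicate 1 (12 of 21 positive), 1.07 without WT replicate 1 and 3.38 without WT replicate 3. Cdkn1a, the p53-induced inhibitor p21, was at 0, 0 and 0 CPM in the double mutant and 0, 88.6 and 4.37 CPM in WT, a value that rests on WT replicate 2. Chromatin proteins abundant in dividing cells were positive in 18 of 18 members, and 6 did not overlap (median 0.82). Anp32b, a histone chaperone, had 373, 431 and 1122 CPM in the double mutant and 86.6, 137 and 155 CPM in WT, and Stmn1, which destabilises microtubules, had 970.1, 2022 and 1435 CPM in the double mutant and 351, 514 and 1119 CPM in WT; neither passed. The list for H2A.Z and its exchange was mixed, since 9 of 15 were positive and H2az1 alone passed (median 0.48; −0.02 without double-mutant replicate 2 and 0.04 to 0.23 without double-mutant replicate 1 or 3 or WT replicate 1 or 3). The paralog H2az2 had 215, 248 and 234 CPM in the double mutant and 127, 241 and 85.3 CPM in WT, and its groups overlapped. In the nuclear transport list 20 of 26 were positive, 6 did not overlap and Kpna2 alone passed (median 0.80; 0.52 without double-mutant replicate 3 and 2.37 without WT replicate 3). Nup62, a central channel nucleoporin, had 354, 229 and 365 CPM in the double mutant and 96.7, 0 and 2.19 CPM in WT, without overlap. Among genes of mitochondrial shape, 9 of 14 were positive with Mtfr1 as the only call, and Dnm1l, the fission GTPase, had 35.4, 81.8 and 81.1 CPM in the double mutant and 0, 195 and 509 CPM in WT.

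All 28 erythroid genes tested had a positive fold change, against 60.2% of all genes, though none passed the adjusted threshold. The erythroid list added up to 22714, 9812 and 23599 CPM in the double mutant and 5382, 5949 and 8713 CPM in WT, without overlap. At an unadjusted p below 0.05, 10 members were higher and 0 lower, 11 did not overlap, and the median was 2.04. Among all genes, 8.27% were higher and 2.26% lower at that p, and 13% did not overlap upward. In thinned libraries 25 of 25 tested members were positive, and without double-mutant replicate 3 it was 25 of 28, beside 56.4% of all genes in each fit. The median was 3.60 without WT replicate 3. In bulk RNA, more cells of a type and more RNA per cell cannot be told apart.

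**Figure D2:**
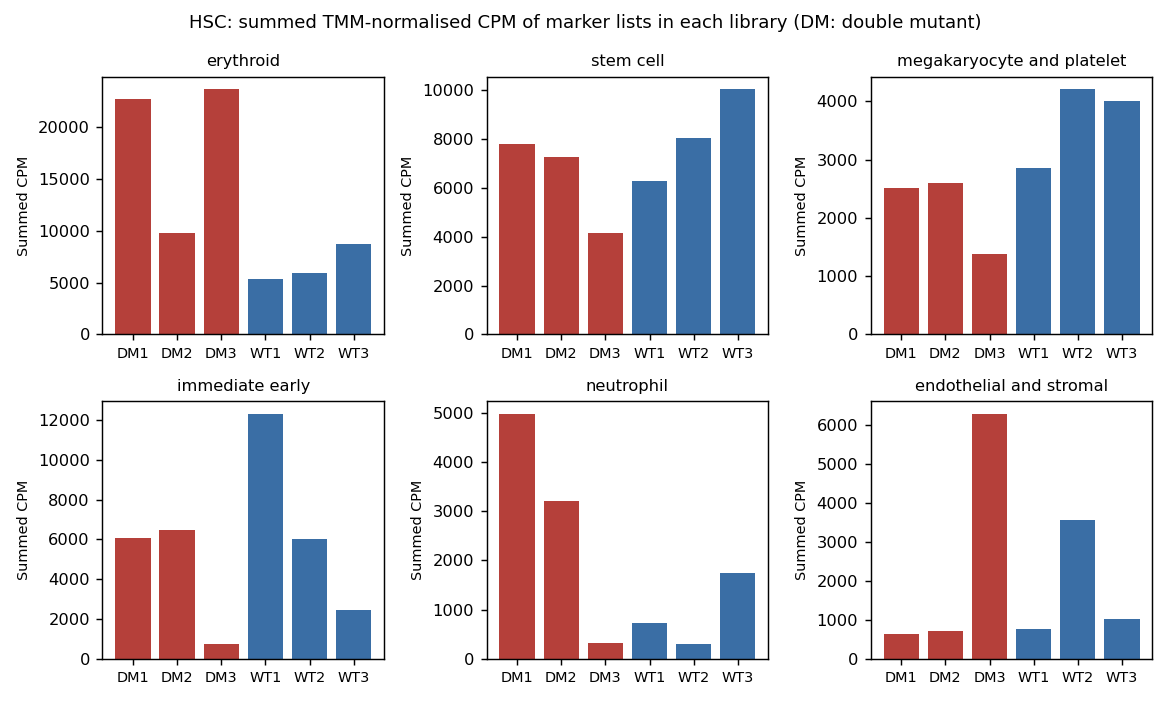
Summed TMM-normalised CPM of 6 marker lists in each library, with the 3 double-mutant libraries (DM, red) left of the 3 WT libraries (blue), each panel on its own axis from 0. Only the erythroid panel and the megakaryocyte panel separate the groups, in opposite directions, and the endothelial and stromal sum is highest in double-mutant replicate 3.

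Car2, an erythroid carbonic anhydrase, had 7863, 4977 and 9695 CPM in double-mutant HSC, against 1528, 3268 and 4084 CPM in WT HSC. No library overlapped (log2 fold change 1.34 ± 0.45, edgeR adjusted p = 0.468). Klf1, the erythroid transcription factor, had 286, 234 and 646 CPM in the double mutant and 0, 68.6 and 136 CPM in WT, and Rhag, a Rh blood group glycoprotein, had 427, 349 and 874 CPM in the double mutant and 5.09, 119.6 and 101 CPM in WT. Both were higher in each double-mutant library than in any WT library (edgeR adjusted p = 0.468 and 0.429). Cldn13, a claudin of mouse erythroid cells, was at 33.3, 166 and 481 CPM in the double mutant and 0, 0 and 0 CPM in WT, the member nearest to the threshold (edgeR adjusted p = 0.0834). Hbb-bt, an adult beta globin that shares sequence with its neighbouring copy, had 719.9, 714 and 401 CPM in the double mutant and 259.7, 115 and 59.0 CPM in WT.

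Heme synthesis and iron genes followed with smaller counts. Of 16 heme genes, 13 were positive and 4 did not overlap (median 1.38), and of 12 iron genes, 9 were positive, 3 did not overlap upward and 1 downward (median 0.94). Of all genes, 13% did not overlap upward and 2.73% downward. The iron median was 0.59 without double-mutant replicate 3, 0.43 and 0.52 without WT replicate 1 or 2, and 1.88 without WT replicate 3. Fech, which inserts iron into heme, had 805, 278 and 1143 CPM in the double mutant and 10.2, 259 and 413 CPM in WT, and its groups overlapped. Fth1, the ferritin heavy chain, had 2196, 2415 and 2449 CPM in the double mutant and 799, 1419 and 1045 CPM in WT, without overlap. Slc40a1, the iron exporter ferroportin, had 159, 0 and 568 CPM in the double mutant and 0, 0 and 2.19 CPM in WT. Hfe, which regulates hepcidin, was at 0, 0 and 0 CPM in the double mutant and 183, 111 and 26.2 CPM in WT, so it was absent from the double-mutant counts and present in each WT library. None of these 4 passed (edgeR adjusted p from 0.288 to 0.468).

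The sorted cells carried stem cell transcripts in both groups, with 27 or 28 of 30 stem cell markers detected in each double-mutant library and 22 to 25 in each WT library. Their sum was 7797, 7247 and 4138 CPM in the double mutant and 6263, 8043 and 10024 CPM in WT, with overlap, and 12 of 28 tested members were positive (median −0.29; −0.48 and −0.73 without double-mutant replicate 1 or 2). Mmrn1, a platelet granule protein found in stem cells, had 1229, 1218 and 655 CPM in the double mutant and 830.0, 2141 and 2031 CPM in WT. Cd34 had 333, 13.6 and 186 CPM in the double mutant and 163, 536 and 885 CPM in WT; neither passed (edgeR adjusted p = 0.884 and 0.736). Stem cell transcription factors summed to 3686, 4115 and 2720.1 CPM in the double mutant and 2251, 2057 and 3594 CPM in WT, and 9 of 14 were positive. Gfi1b, a repressor needed for red cells and platelets, had 514, 251 and 466 CPM in the double mutant and 96.7, 57.6 and 139.9 CPM in WT, without overlap (edgeR adjusted p = 0.473).

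Megakaryocyte and platelet genes lay lower in the double mutant on balance, and none passed. Their sum was 2520.5, 2597 and 1377 CPM in the double mutant and 2862, 4204 and 4012 CPM in WT, without overlap. Of 13 tested members, 5 were positive, and 2 did not overlap downward (median −0.95; −0.56 and −0.51 without WT replicate 1 or 2). Among all genes, 60.2% were positive and 2.73% did not overlap downward. Rab27b, a GTPase of platelet granule release, had 0, 0 and 0 CPM in double-mutant HSC, against 356, 144 and 28.4 CPM in WT HSC. It was found in every WT library and no double-mutant library, at least 216.1-fold lower in the double mutant, and did not pass (edgeR adjusted p = 0.436). Itgb3, a chain of the fibrinogen receptor, had 28.3, 0 and 0 CPM in the double mutant and 244, 210.3 and 85.3 CPM in WT. Of 14 genes of the platelet cytoskeleton, 4 were positive (median −1.16; −0.30 without WT replicate 1), so Pacsin2 lay against the trend of its own list. Arpc1b, an Arp2/3 subunit, had 444, 567 and 337 CPM in the double mutant and 1171, 801 and 920.5 CPM in WT, and its groups did not overlap.

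Both lower calls are members of the list of endothelial and stromal genes, which was chosen with earlier results of these data known. Their place in that list is therefore no separate result. Cxcl12, the chemokine that holds stem cells in their niche, had 0, 0 and 0 CPM in double-mutant HSC, against 0, 1151 and 354 CPM in WT HSC. Gpx3, a secreted glutathione peroxidase, had 0, 0 and 0 CPM in double-mutant HSC, against 0, 753 and 63.4 CPM in WT HSC. The groups overlapped for both, because WT replicate 1 was also at 0, and WT replicate 2 held most of each signal. Giving the double mutant 3 counts over its summed libraries, Cxcl12 was at least 615-fold lower (edgeR adjusted p = 0.0366) and Gpx3 at least 334-fold lower (edgeR adjusted p = 0.0106). Neither bound allows for the spread between libraries. Without WT replicate 2 the adjusted p was 0.766 for Cxcl12 and 0.413 for Gpx3. The Cxcl12 call was also lost without double-mutant replicate 1, 2 or 3 (adjusted p = 0.358, 0.144 and 0.579), and the Gpx3 call without double-mutant replicate 1 or 3 (0.132 and 0.365) or WT replicate 1 or 3 (0.604 and 0.138).

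The whole list summed to 627, 711 and 6289 CPM in the double mutant and 769, 3558 and 1014 CPM in WT, with 8 of 18 tested members positive and a median of −1.99, and its part in these results was not tested. Collagens stood apart in double-mutant replicate 3: Col1a2 had 0, 0 and 2419.6 CPM in the double mutant and 5.09, 128 and 0 CPM in WT, and Col1a1 had 0.709, 0 and 1756 CPM in the double mutant and 0, 0 and 4.37 CPM in WT. That library, which also had the most counts, is also a library without which Rrm1 alone passed. Without it, 3 of 18 members of the list were positive (median −5.77). Without WT replicate 2, 8 of 15 were positive and the median was 0.25, without WT replicate 3 it was −1.15, and in a fit of the double mutant and WT alone 4 of 6 were positive (median 0.20).

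Markers of other blood cells were mostly absent or uneven. Of the lists for B cells, T and NK cells and mast cells, 4, 2 and 2 genes passed the low-count filter. Neutrophil genes summed to 4981, 3202 and 331 CPM in the double mutant and 718, 294 and 1751 CPM in WT, high in double-mutant replicates 1 and 2 and low in replicate 3. Their median of 1.69 was 0.34 without double-mutant replicate 1 and 3.34 without WT replicate 3. S100a8, a calcium-binding protein of neutrophils, had 785, 826 and 47.4 CPM in the double mutant and 132, 44.3 and 162 CPM in WT, with overlap. Immediate early genes, which are switched on rapidly by many stimuli, summed to 6079.8, 6451 and 722 CPM in the double mutant and 12307, 6011 and 2444 CPM in WT, and 4 of 14 were positive (median −0.57). Without WT replicate 1, where Fos was highest, 9 of 14 were positive and the median was 0.26; it was −0.15 without double-mutant replicate 3 and −0.97 without WT replicate 3. Fos itself had 989, 493 and 0.526 CPM in the double mutant and 1879, 706 and 212 CPM in WT.

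Tsc22d3, a glucocorticoid-induced leucine zipper protein, had 664, 2240.3 and 197 CPM in double-mutant HSC, against 2862, 2894 and 3061 CPM in WT HSC. The WT libraries were nearly equal, and the double-mutant libraries spread widely below them (log2 fold change −1.51 ± 0.50, edgeR adjusted p = 0.375). Glucocorticoid-responsive genes as a list were mixed, with 5 of 12 positive (median −0.76; 0.09 without WT replicate 1). Class I presentation genes were level (7 of 14 positive, median −0.05), though H2-K1, a class I heavy chain, had 1854, 2270.3 and 1333 CPM in the double mutant and 2546, 2643 and 2788 CPM in WT, without overlap. Interferon-stimulated genes were positive in 3 of 11 (median −0.41), and without WT replicate 1 in 6 of 11 (median 0.78). Genes of the p53 response were positive in 7 of 10, but in 3 of 9 without WT replicate 1 and 4 of 10 without WT replicate 2, and those of the unfolded protein response in 6 of 14.

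Genes of growth and protein synthesis lay mostly above WT, with no member past the adjusted threshold. Among all genes, 60.2% were positive and 13% did not overlap upward. Of 20 Myc target and nucleolar genes, 20 were positive and 9 did not overlap (median 1.39; 0.91 without WT replicate 1 and 2.13 without WT replicate 3). Of 36 cytosolic ribosomal protein genes, which have many near-identical pseudogenes, 35 were positive and 18 did not overlap (median 0.86). Of 30 nuclear-encoded genes of oxidative phosphorylation, 28 were positive and 8 did not overlap (median 0.95), and of 27 proteasome genes, 22 were positive and 8 did not overlap (median 1.08). Glycolysis genes were positive in 6 of 15 (median −0.23).

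**Figure D3:**
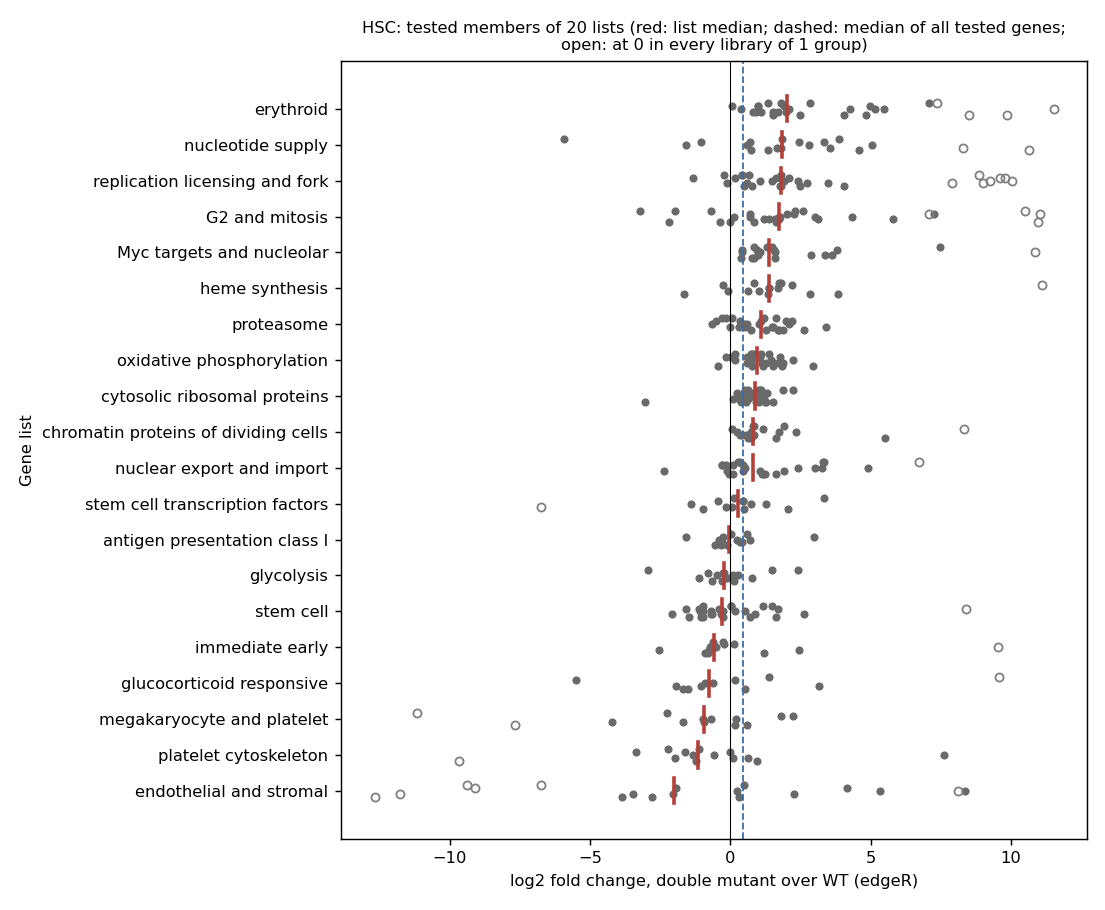
Log2 fold change, double mutant over WT, of each tested member of 20 gene lists, with the list median in red and the median of all tested genes (0.44) dashed; open circles are genes at 0 in every library of 1 group, whose fitted value is no bound. The erythroid, nucleotide, replication and mitotic medians lie furthest to the right (1.73 to 2.04) and the endothelial and stromal median furthest to the left (−1.99).

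Myc had 602, 526 and 469 CPM in double-mutant HSC, against 204, 239 and 89.6 CPM in WT HSC. The groups did not overlap (log2 fold change 1.59 ± 0.87, edgeR adjusted p = 0.491). Npm1, the nucleolar chaperone nucleophosmin, had 641, 782 and 1001 CPM in the double mutant and 163, 177 and 459 CPM in WT, again without overlap. Rplp0, a ribosomal stalk protein, had 896, 815 and 1354 CPM in the double mutant and 183, 511 and 376 CPM in WT, Atp5b, the catalytic subunit of ATP synthase, had 1399, 1371 and 1803 CPM in the double mutant and 1135, 487 and 472 CPM in WT, and Pkm, the glycolytic pyruvate kinase, had 599, 605 and 347 CPM in the double mutant and 1003, 1005 and 1351 CPM in WT. Of these 5 genes, Pkm alone was lower in every double-mutant library than in any WT library.

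The ETS family and the co-repressors that Etv6 is known to recruit gave no call. Of 14 ETS genes, 9 were positive (median 0.31), and this median was below 0 in 7 of 15 alternative fits. Fli1, an ETS activator of megakaryocyte genes, had 215, 283 and 28.4 CPM in the double mutant and 367, 79.7 and 955 CPM in WT, and Spi1, the myeloid factor PU.1, had 152, 139 and 57.4 CPM in the double mutant and 173, 133 and 139.9 CPM in WT. Of 16 co-repressor genes, 13 were positive (median 1.14; 0.18, with 9 of 16 positive, without double-mutant replicate 3, and 1.96 without WT replicate 3). Hdac1, a histone deacetylase, had 409.6, 379 and 818 CPM in the double mutant and 331, 135 and 254 CPM in WT, without overlap, and Sin3a, a scaffold of such enzymes, had 9.21, 139 and 168 CPM in the double mutant and 10.2, 0 and 2.19 CPM in WT, with overlap.

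Below the threshold, the 8 higher genes with the smallest p among those without overlap were Golm1, Mcm2, C1qtnf12, Aldh18a1, Mfsd14a, Nde1, Nxpe2 and Rmdn3 (edgeR adjusted p 0.0571 to 0.0834). C1qtnf12, a secreted C1q and TNF related protein, had 689, 196 and 878 CPM in double-mutant HSC, against 30.6, 2.21 and 78.7 CPM in WT HSC. Aldh18a1, which makes the precursor of proline, had 637, 376 and 394 CPM in double-mutant HSC, against 0, 2.21 and 50.3 CPM in WT HSC. Both were found in at least 2 WT libraries, well below the double mutant. Rmdn3, a tether between mitochondria and the endoplasmic reticulum, had 289, 117 and 257 CPM in double-mutant HSC, against 0, 0 and 0 CPM in WT HSC, and was at least 81.5-fold higher. Golm1, Mfsd14a, Nde1 and Nxpe2 were likewise at 0 in every WT library.

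The 8 lower ones were Tsc22d3, Nod1, Hid1, Rab27b, B4galt7, Tnip3, Lasp1 and Mtm1, further from the threshold (edgeR adjusted p 0.375 to 0.468). Nod1, a sensor of bacterial cell wall fragments, had 0, 0 and 0 CPM in double-mutant HSC, against 96.7, 288 and 80.9 CPM in WT HSC, at least 190.2-fold lower. B4galt7, which starts the sugar chains of proteoglycans, had 0, 0 and 0 CPM in double-mutant HSC, against 107, 292 and 63.4 CPM in WT HSC. Tnip3, an inhibitor of NF-kB signalling, had 0, 0 and 3.68 CPM in double-mutant HSC, against 428, 208 and 94.0 CPM in WT HSC. Apart from Tsc22d3, each was at or near 0 in all double-mutant libraries.

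**Figure D4:**
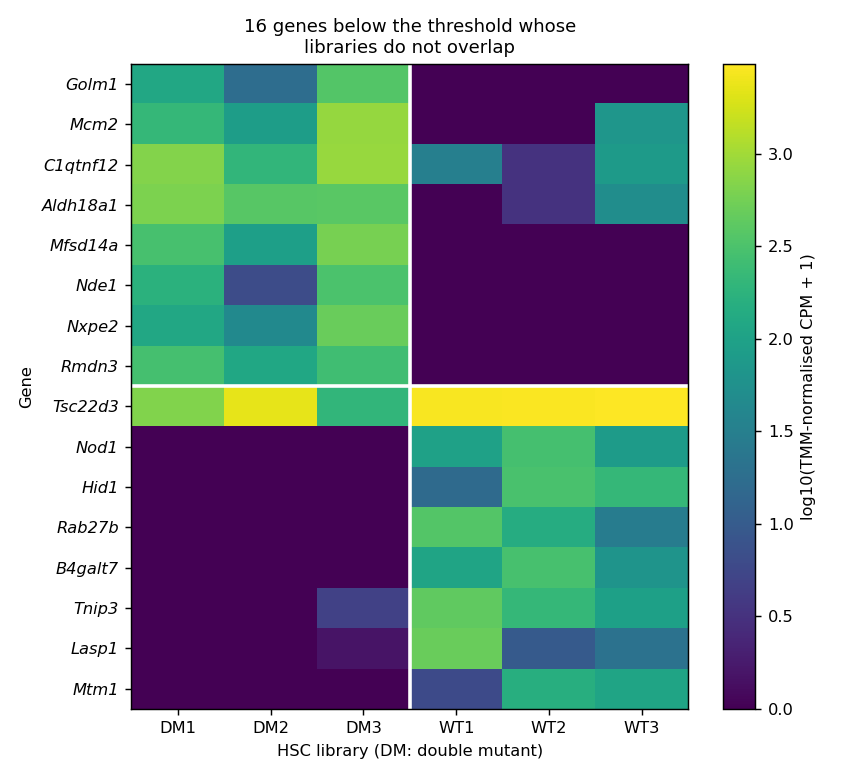
Log10 of TMM-normalised CPM + 1 in each double-mutant (DM) and WT library for 8 higher (top) and 8 lower (bottom) genes below the adjusted threshold whose libraries do not overlap. Most of them are at 0 in all 3 libraries of the lower group, Tsc22d3 being the one with high values in every WT library.

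The same genes can be set beside HSC with P216L alone. Rrm1 had 459, 710.4 and 1665 CPM in the P216L libraries, H2az1 1563, 1571 and 2652 and Kpna2 838, 552 and 1796. None of the 3 passed the test between the double mutant and P216L (edgeR adjusted p = 1 for each). Pacsin2 had 0, 89.4 and 608 CPM there, and Mtfr1 0, 189 and 647. Between the double mutant and P216L, 2 of 9471 genes (0.0211%) passed, both lower in the double mutant. Lig3, a DNA ligase of nuclear and mitochondrial repair, was at 0, 0 and 0 CPM in the double mutant, against 1867, 0 and 39.3 CPM in P216L (at least 779-fold lower, edgeR adjusted p = 0.000599). Gpx3 was at 0, 0 and 0 CPM, against 1452, 0 and 4.07 CPM in P216L (at least 595-fold lower, edgeR adjusted p = 0.00919). Both rest on P216L replicate 1, without which neither passed (adjusted p = 1 for each). Each call was also lost without double-mutant replicate 1 or 3 (adjusted p 0.119 and 0.168 for Lig3, 0.196 and 0.174 for Gpx3), and that of Gpx3 without replicate 2 (0.106). The double-mutant libraries are shared by both comparisons.

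The change from WT was also compared with that in MEP, in a fit of both cell types that tested 12036 genes, of which 2 (0.0166%) passed. That fit shares each gene's spread between both cell types, so the spread may be too small for HSC. Neither gene passed in the main test between the double mutant and WT in HSC. Uba2, a subunit of the enzyme that activates SUMO, had 230.2, 364 and 528 CPM in double-mutant HSC, against 7.89, 9.10 and 1.84 CPM in WT HSC. In MEP it had 675, 613 and 646 CPM in the double mutant and 617 and 612 CPM in WT. The HSC change exceeded the MEP change by 5.86 ± 1.04 on the log2 scale (edgeR adjusted p = 0.0408). Mtrex, an RNA helicase of the nuclear exosome, had 256, 398 and 249 CPM in double-mutant HSC, against 0, 1.82 and 0 CPM in WT HSC. In MEP it had 360.2, 381 and 347 CPM in the double mutant and 347 and 367 CPM in WT, and the difference of the changes was 8.61 ± 1.55 (edgeR adjusted p = 0.0408). For both genes the MEP libraries were nearly equal and WT HSC stood apart as low; both were named after their values were seen. Each call was lost without any single MEP library (adjusted p 0.198 to 0.26), without double-mutant HSC replicate 1 or 3 (0.0636 and 0.0544) and without WT HSC replicate 2 (0.0537). The differences for Rrm1 and H2az1 were 4.88 ± 1.01 and 2.83 ± 0.59, each with an edgeR adjusted p of 0.0587.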

How the data were processed

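HSC and MEP libraries were made from sorted bone marrow cells with NucleoSpin RNA XS and SMART-Seq v4, per the labels' protocols. The authors deposited estimated counts per Entrez gene, and the submitters' processing notes name FastQC, Salmon and GRCm39, with versions not given in the sources used here. In the 11 HSC libraries 6.09 to 32.3% of nonzero values were not whole; all were rounded. Symbols came from a GRCm38.p6 table (30211 of 30519 genes; the other 308 held 0.0442% of counts).

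The 11 HSC libraries were fitted together with edgeR 4.0.16 (R 4.3.3): TMM, filterByExpr (minimum count 10, minimum total 15), robust quasi-likelihood tests and Benjamini-Hochberg adjustment over all tested genes at 0.05. The biological coefficient of variation was 1.60. The comparison with MEP used a fit of all 21 libraries, with a spread per gene shared by both cell types and a coefficient of 1.06. Same-group libraries differed by a chi-square of 30.0 to 70.1 per degree of freedom, so none is a copy. The library labelled HSC S211I replicate 2 (13154016 counts, 16585 genes) stands apart and enters the shared spread.

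Named were every gene past 0.05, the 8 higher and 8 lower non-overlapping genes next in p, the 3 members of each list with the smallest p, and Etv6; 2 list members that the rule names are not reported here. Other list members were named after their values were seen. The members and the 36 lists were chosen with earlier results of these data known. Where a list's genes at 0 in 1 group were set to their bound, medians stayed as given except B lymphoid (2.14, then 0.66) and all genes (0.44, then 0.42). Alternatives used RLE, no filter, DESeq2 1.42.0, limma 3.58.1 (voom with quality weights), thinning, a Y-linked covariate, a replicate block, and single libraries left out. Scripts were tested on simulated data.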

Additional observations from a re-analysis of the deposited data

Results flagged for a closer look

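The double-mutant effect differed between HSC and MEP for 2 genes by a test of that difference across all genes. For Uba2 the HSC change exceeded the MEP change by 5.86 on the log2 scale (edgeR adjusted p = 0.0408), with Uba2 higher in 3 of 3 double-mutant HSC libraries than in any WT HSC library. For Mtrex the difference was 8.61 (edgeR adjusted p = 0.0408), again with 3 of 3 libraries higher. Without any single MEP library neither passed (adjusted p 0.198 to 0.26), and with RLE size factors both were at 0.0719.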

How the results depend on the processing

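The number of genes called between the double mutant and WT (7) was 0 with no low-count filter, 0 in a fit of these groups alone, 2 in thinned libraries, 165 with DESeq2, 221 with voom, and 1 to 24 with single libraries left out; it was 1 without double-mutant replicate 3 and 24 without WT replicate 3. With no filter 841 genes had an unadjusted p below 0.05, and with these groups alone 346. The same-numbered libraries deviated together with correlations of −0.00225, 0.00346 and 0.0400. Of the double-mutant libraries, replicate 3 alone correlated best with the WT library of its own number. With libraries this unlike within a group, such values cannot show whether the numbers pair them. With the replicate block the count was 11. Against P216L (2) it was 1 with RLE, 0 with the block, 36 with DESeq2 and 0 to 4 with single libraries left out. For HSC minus MEP (2) it was 0 with RLE, 1 with no filter, 679 with DESeq2, 0 with the block and 0 to 72 with single libraries left out; the cause was not tested. Among the alternatives that gave a value, Rrm1 stayed below 0.05 in 13 of 15, H2az1 in 11 of 15, Mtfr1 in 10 of 14, Kpna2 in 7 of 15, Gpx3 and Cxcl12 in 5 of 14, and Pacsin2 in 4 of 14. Non-overlapping genes numbered 1049 higher and 388 lower with RLE, 1066 and 372 with library totals alone, and 858 and 276 of 7252 when thinned; these settings, and list medians other than by RLE, filter or left-out library, were chosen after seeing the data.

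The erythroid, heme, nucleotide, replication, mitotic, Myc, ribosomal, oxidative phosphorylation and proteasome medians stayed above 0 in all 15 alternatives (erythroid 1.68 to 3.71), and the stem cell and megakaryocyte medians below 0. The median of all tested genes was itself above 0 in 14 of the 15 and ranged from 0 to 0.97. A list median above 0 therefore does not by itself set a list apart, and the ribosomal one ranged from 0.54 to 1.02. The percentage of genes with a positive change was 53.3% with RLE. The list medians that changed sign in at least 1 alternative were these, with ranges over the 15: endothelial and stromal −5.77 to 0.25, H2A.Z −0.16 to 1.09, p53 −0.04 to 0.67, stem cell transcription factors −0.0055 to 0.49, glucocorticoid −1.29 to 0.09, unfolded protein response −0.48 to 0.55, immediate early −0.97 to 0.26, interferon −0.98 to 0.78, class I −0.30 to 0.13, F-BAR −0.17 to 0.84, ETS −0.61 to 1.41, and the lymphoid, mast cell and sex-linked lists, in which 2 to 4 members passed the low-count filter. Single genes named by the rule that changed sign, none of them called, were as follows. With the Y-linked covariate, Nkg7 was −0.97, Yeats4 −0.41, Ino80 −1.39, Ddx3y 0.63 and Eif2s3y 1.40. Nkg7 was −0.16 with RLE and with DESeq2 and −0.13 when thinned, where Eif2s3y was 0.0014. With voom, Lck was 0.034, and with the block Ddx3y was 0.33. With single libraries left out, the ranges were −1.09 to 3.58 for Ngp, −9.74 to 8.67 for Lck, −0.60 to 9.58 for Nkg7, −1.40 to 0.30 for Gata2, −1.93 to 0.067 for Fos, −0.26 to 4.42 for Ino80, −5.21 to 5.16 for Uty, −1.43 to 0.56 for Ddx3y and −1.47 to 0.61 for Eif2s3y. A count of 3 is worth 15.3 CPM in WT replicate 1 and 8.18 CPM in double-mutant replicate 2. A count of 0 there allows a level up to that value, for counting error only.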
